A study of Mus musculus with 2 samples.

Results

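The genes described here are Dppa2, Dppa3, Dppa4 and Dppa5a, the developmental pluripotency-associated genes chosen by symbol from the 32285 genes that the files list. All 4 members were found, 1 row each. They were followed per cell and in summed counts through pluripotent, two-cell-like and differentiated cells of mouse embryonic stem cell cultures, at 2 time points.

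The cells were C3H/HeSn-Paf/J embryonic stem cell lines, some from XX, some from XO and some from XY embryos, grown with serum and LIF on irradiated mouse embryonic fibroblast feeders. All lines were mixed before capture, males and females together, and no treatment other than culture was given. Time 1 is the mixture at an early passage and time 2 is the mixture 10 passages later. Each time point is 1 library of 3' single-cell RNA counts, so every difference between time points is a difference between 2 libraries with no replicate check, and no p-value is given anywhere.

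Dppa2 and Dppa4 encode nuclear proteins with a SAP domain that bind each other and CpG-rich promoters. They are known to keep developmental promoters open to later activation and to act upstream of Dux, the transcription factor that opens the two-cell programme, a transient expression state resembling the mouse embryo at zygotic genome activation that a few cells of a stem cell culture enter. Dppa3, also called Stella, is a maternal and germ cell factor that protects imprints in the zygote and displaces Uhrf1, the partner of the maintenance DNA methyltransferase, from chromatin. Dppa5a, also called Esg1, encodes a KH-domain RNA-binding protein of the early embryo and of undifferentiated stem cells. Dppa2 and Dppa4 are neighbours in the genome.

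In GENCODE M21 (build GRCm38) Dppa4 (ENSMUSG00000058550) spans positions 48283733 to 48294237 of chromosome 16 on the plus strand, with 7 exons in its longest transcript. Dppa2 (ENSMUSG00000072419) lies 9671 bases further on the same strand, from 48303908 to 48319723, with 8 exons. Dppa3 (ENSMUSG00000046323) lies on the plus strand of chromosome 6, from 122626410 to 122630272, with 4 exons, between Gdf3 and Nanog. Dppa5a (ENSMUSG00000060461) lies on the minus strand of chromosome 9, from 78367052 to 78368177, with 3 exons, next to Ooep. No annotated gene overlaps any of the 4.

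Annotated copies matter for reading these counts. Transcripts of other genes matched at 85% identity or more over at least 200 bases for 8 genes in the case of Dppa2, 2 for Dppa3, 2 for Dppa4 and 11 for Dppa5a. The files list only 2 of these copies, A830035A12Rik and Pigp, both matching Dppa5a. Pigp has an annotated transcript with 95.9% identity to Dppa5a over 417 bases, so counts of these 2 genes may not be separate. How reads that match several copies were treated is not given in the sources used here.

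After filters 23196 cells remained at time 1 and 25522 at time 2, with medians of 44395 and 50431 UMIs (unique molecules counted) per cell. The 2 libraries shared 159 cell barcodes. At time 1, 69 cells of a Krt18-led cluster with very many UMIs were left out of the pool and of every named class, leaving 23127, and appear only as a cluster of their own in the order of clusters and in the sums over clusters. Cells were clustered on autosomal genes without the 4 members, so that no class below was made from the members' own counts. Genes of the X and Y chromosomes were thus left out of the clustering, and Pigp was not. Shares of cells were computed after each cell was thinned to 10000 UMIs, and levels are CPM, the UMIs of a gene per 1e6 UMIs of the summed counts of a class, with 95% intervals that cover counting error only.

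The 4 clusters with high summed pluripotency markers and low primed epiblast and two-cell markers were pooled as the pluripotent pool, which held 8338 cells (36.1%) at time 1 and 19571 (76.7%) at time 2. They are called by their leading genes: Rhox9-led, Jam2-led, Nanos3-led and Tdh-led. The Ulk4-led (4904 and 89 cells) and Rpgrip1-led (2388 and 2 cells) clusters were left out by the primed marker limit of 100 CPM. Their primed markers summed to 196 and 209 CPM, beside 93.1 CPM in the Rhox9-led cluster. Their pluripotency markers summed to 2792 and 2850 CPM, above the Rhox9-led cluster at 2731 CPM. Pool shares and ratios with these cells counted in the pool were not computed. The 10 genes that led the Rhox9-led cluster included the trophoblast marker Krt7, and those that led the Nanos3-led cluster included the germ cell markers Nanos3 and Tfap2c, so the pool is not one named cell type. Its make-up also differed between libraries. The Rhox9-led cluster held 53.5% of the pool at time 1 and 2.33% at time 2, and the Tdh-led cluster 0.864% and 56.7%. The members' pooled levels are therefore given with the values inside the clusters. Values of other genes in the pool are given for the pool only and carry this difference in make-up. Except in the split by X dosage, levels, ratios between libraries, shares and spread of single clusters include two-cell-like cells (defined below). The pool leaves these cells out. At time 1 the Rhox9-led cluster held 4486 cells, of which 4464 were in the pool.

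Dppa3 and Dppa5a were the 2 members with lower levels in the later library. In the pool Dppa3 stood at 352 CPM (interval 351 to 354) in the early library and 192 CPM (191 to 192) in the later one, a log2 ratio of -0.88. Dppa5a stood at 8477 CPM with an interval of 8469 to 8486 in the early library and at 4486 CPM with 4482 to 4490 in the later one, a log2 ratio of -0.92. Dppa2 and Dppa4 stood slightly higher at time 2. Dppa2 was at 83.4 CPM (82.6 to 84.3) and 96.6 CPM (96.0 to 97.2), a log2 ratio of 0.21, and Dppa4 at 124 CPM (123 to 125) and 153 CPM (152 to 154), a log2 ratio of 0.31.

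None of the 4 members differed by 2-fold or more between the libraries of the pool, whereas 4.26% of 7395 genes with at least 10 CPM did. The median log2 ratio of those genes was -0.03, and 4.96% and 4.27% of them had lower ratios than Dppa3 and Dppa5a. For Dppa2 and Dppa4 the corresponding shares were 73.2% and 81.0%. Scaling by TMM factors moved the median of all genes by 0.15, to 0.12, and the ratios of Dppa2, Dppa3, Dppa4 and Dppa5a to 0.36, -0.72, 0.46 and -0.77. Members did pass 2-fold in some settings chosen after seeing the data. With only the Jam2-led and Tdh-led clusters in the pool Dppa5a gave -1.13, beside -0.17 and -0.65 inside the 2 clusters. With the level in fibroblast-like cells subtracted Dppa3 gave -1.26 and Dppa5a -1.40. That level is not a floor, since mesendoderm-like cells held 442 and 234 CPM of Dppa5a beside 1817 and 1962 CPM in fibroblast-like cells. Dppa3 was also past 2-fold lower in each class of X dosage described below. The share of all genes past 2-fold was not computed in these settings and classes.

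Inside the clusters the later library was lower for Dppa3 in all 4, but by unequal amounts. The log2 ratio of Dppa3 was -0.68 in the Rhox9-led, -0.66 in the Jam2-led and -0.78 in the Tdh-led cluster, the last with only 72 cells at time 1. In the Nanos3-led cluster it was -0.14, from 466 to 422 CPM. In Tdh-led cells, whose share of the pool was larger at time 2, Dppa3 was at 195 CPM and 113 CPM. With equal weight to the 3 clusters that held at least 200 cells in both libraries the log2 ratio was -0.48. With only the Jam2-led and Tdh-led clusters in the pool it was -0.20, a smaller difference than inside either cluster (-0.66 and -0.78).

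Dppa5a was likewise lower at time 2 in all 4 clusters. Its log2 ratio was -0.50 in the Rhox9-led, -0.67 in the Nanos3-led and -0.65 in the Tdh-led cluster, and -0.17 in the Jam2-led cluster, where it stood at 9955 and 8867 CPM. The order of the clusters for Dppa5a was the same in both libraries: Jam2-led highest, then Rhox9-led, Nanos3-led and Tdh-led. With equal weight to the 3 clusters the log2 ratio was -0.44. With only the Jam2-led and Tdh-led clusters in the pool it was -1.13, a larger difference than inside either cluster (-0.17 and -0.65). In that setting the Tdh-led cells went from 72 to 11097 beside 1580 and 2171 Jam2-led cells. No member was past 2-fold in any of the 4 clusters, beside 1.23%, 1.09%, 1.25% and 0.915% of genes in the Rhox9-led, Jam2-led, Nanos3-led and Tdh-led cluster.

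Dppa2 was above 0 by more than counting error in 3 of the 4 clusters, with log2 ratios of 0.21 (Rhox9-led), 0.22 (Jam2-led) and 0.36 (Nanos3-led), against 0.01 in the Tdh-led cluster. For Dppa4 the ratio was 0.46 in the Nanos3-led cluster but between -0.06 and 0.08 in the other 3. The direction of these small pooled values was not kept under all settings. When the level in fibroblast-like cells of the same library was subtracted, Dppa2 went to -0.16 and Dppa4 to -0.08. The subtracted level was itself higher at time 2 (18.0 and 38.0 CPM for Dppa2, 31.8 and 66.5 CPM for Dppa4). With only the Jam2-led and Tdh-led clusters, which had a pluripotency marker among their leading genes, Dppa2 went to -0.29. In that setting the Tdh-led cells went from 72 to 11097 beside 1580 and 2171 Jam2-led cells, and inside the 2 clusters Dppa2 was not lower (0.01 and 0.22).

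**Figure D1:**
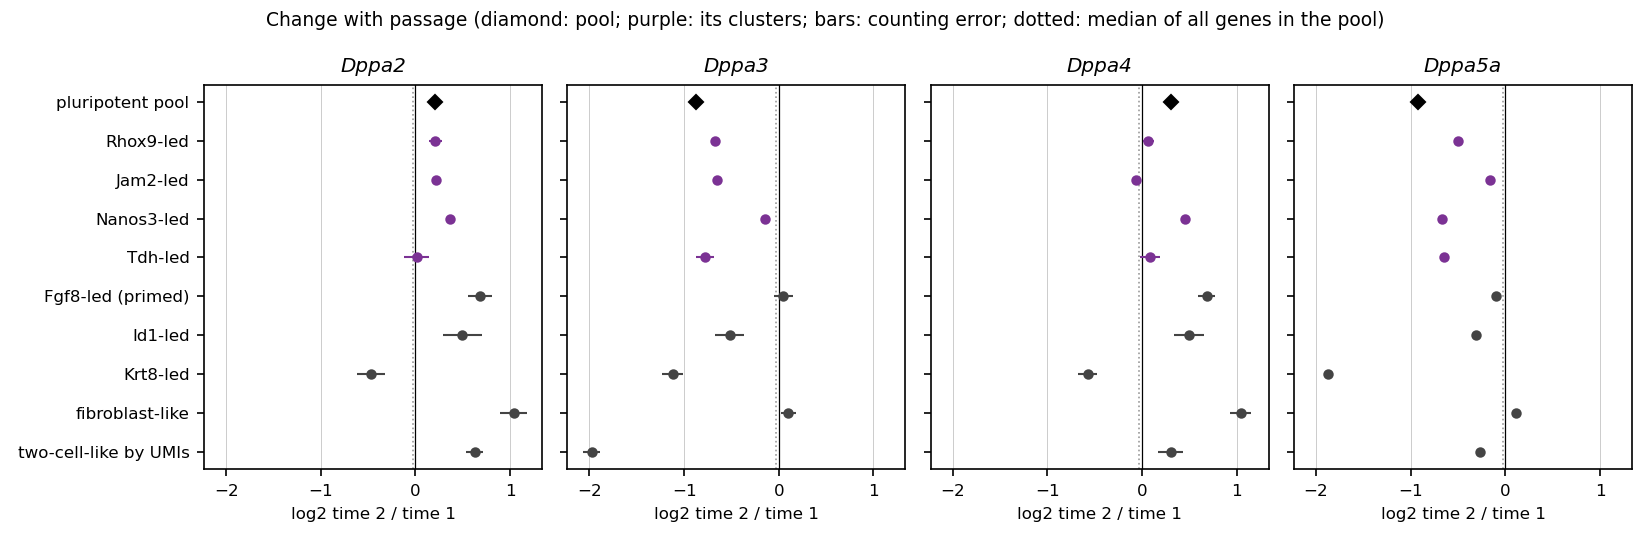
Log2 ratio of time 2 over time 1 (x axis, CPM plus 1) for each gene in the pluripotent pool (diamond), its 4 clusters (purple) and other classes (grey); bars are counting error and the dotted line is the median of all genes in the pool. Dppa3 and Dppa5a lie left of 0 in all 4 purple clusters, with Dppa3 nearest to 0 in the Nanos3-led cluster (-0.14), while in fibroblast-like cells all 4 genes lie right of 0.

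The clusters themselves carried different combinations of the members. Dppa2 was highest in the Jam2-led cluster of the pool, at 128 CPM at time 1 and 150 CPM at time 2, against 62.3 and 80.4 CPM in the Nanos3-led cluster. Dppa3 had the reverse order. It was at 122 and 77.3 CPM in Jam2-led cells and at 466 and 422 CPM in Nanos3-led cells, with 406 and 254 CPM in Rhox9-led cells. Dppa4 varied least, from 119 to 147 CPM among the 4 clusters at time 1 and from 123 to 164 CPM at time 2. At time 2 the counting intervals of Dppa4 in the Rhox9-led and Jam2-led clusters overlapped.

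Over the pool as a whole, the share of cells with at least 1 UMI moved with the levels. For Dppa3 it was 82.9% (82.1 to 83.7) at time 1 and 62.0% (61.3 to 62.6) at time 2, for Dppa2 51.4% (50.3 to 52.5) and 58.5% (57.8 to 59.2), and for Dppa4 69.0% (68.0 to 70.0) and 77% (76.4 to 77.6). Dppa5a was found in 99.98% and 99.5% of cells. Without thinning the shares were 97.0% and 87.0% for Dppa3, 89.8% and 95.1% for Dppa2, and 97.8% and 99.4% for Dppa4. Thinned shares differed unequally inside the Rhox9-led, Jam2-led, Nanos3-led and Tdh-led clusters. In that order the Dppa3 share differed by -15.6, -16.4, -1.64 and -20.6 percentage points. For Dppa2 the differences were 1.30, 3.21, 9.27 and -1.36 points, and for Dppa4 1.45, -2.31, 11.7 and -4.40 points. The fibroblast-like cells, which should lack these genes, gave thinned shares of 37.4% and 27.5% for Dppa3, 15.1% and 22.8% for Dppa2, 28.7% and 34.9% for Dppa4, and 94.4% and 80.9% for Dppa5a. Median depths were 50676 and 50565 UMIs in the pool and 45027 and 62831 in the fibroblast-like cells.

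Per-cell counts of Dppa3 and Dppa5a were much wider than counting alone gives. The variance over the mean of the thinned counts, which is 1 for pure counting error, was 3.45 and 3.48 for Dppa3 in the pool of time 1 and time 2, against medians of 1.26 and 1.13 over genes of similar mean. For Dppa5a it was 14.2 and 20.1, against 2.67 and 1.99. None of the 14 and 67 genes of similar mean exceeded it in the pool, which mixes clusters of different Dppa5a level. Inside single clusters up to 5 such genes did (of 53, in Tdh-led cells of time 1). Dppa2 (1.28 and 1.2, against medians of 1.09 and 1.08) was wider than 89.2% and 85.1% of genes of similar mean, and Dppa3 than 95.8% and 99.2%. Dppa4 (1.15 and 1.12, against 1.12 at both times) was wider than 63.6% and 51.5%.

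The shape of the Dppa3 distribution differed from a single Poisson level in its share of cells without a UMI. At time 1, 17.1% of pool cells had none, where a Poisson count of the same mean gives 2.41%, and at time 2, 38.0% had none, where it gives 13.0%. The median was 3 UMIs per 10000 at time 1 and 1 at time 2, with highest cells of 30 and 40. This width was seen inside single clusters too, with a variance over the mean of Dppa3 between 2.07 and 3.59 at time 1 and between 2.02 and 3.34 at time 2. These cluster values include the two-cell-like cells. In the Rhox9-led cluster of time 1 those were 22 cells at 1025 CPM of Dppa3, beside 402 CPM in the others. For Dppa5a the median cell held 82 UMIs per 10000 at time 1, with the middle 50% of cells from 61 to 105, and 38 at time 2, with the middle 50% from 22 to 62. Cells with fewer than 10 were 0.840% of the pool at time 1 and 8.33% at time 2. They were 13.9% of the Rhox9-led and 11.1% of the Tdh-led cluster at time 2.

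**Figure D2:**
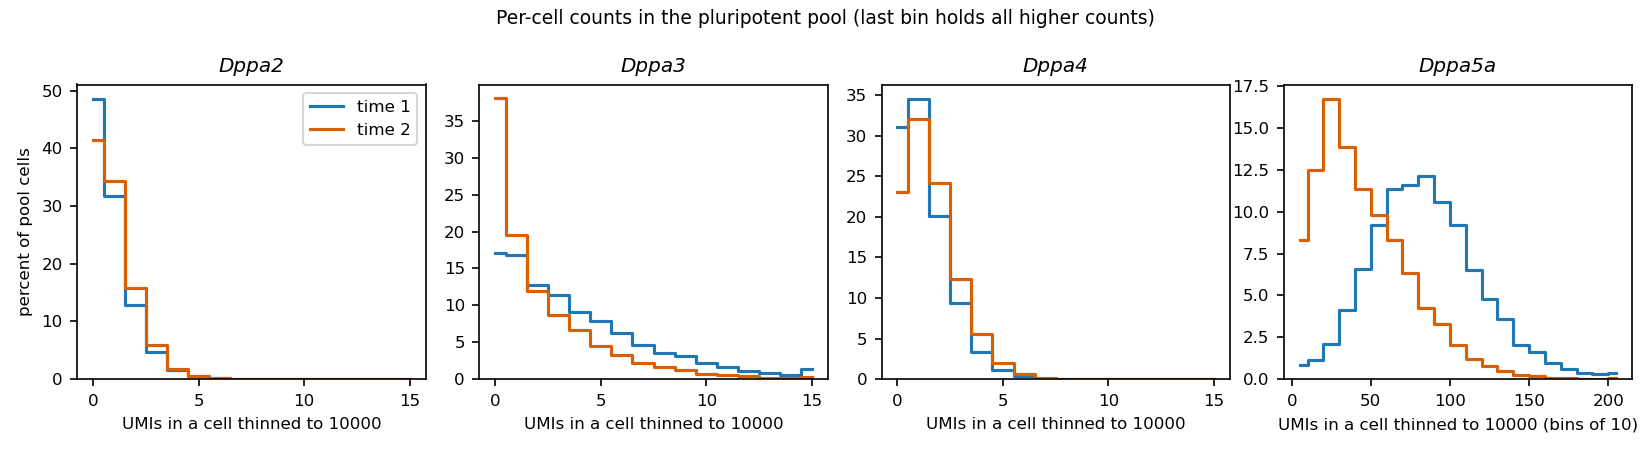
Percent of pool cells (y axis) by UMIs of each gene in a cell thinned to 10000 UMIs (x axis, single counts for Dppa2, Dppa3 and Dppa4 and bins of 10 for Dppa5a), at time 1 (8338 cells) and time 2 (19571 cells). The whole Dppa5a distribution lies lower at time 2, with medians of 82 and 38, while for Dppa3 the cells with 0 UMIs go from 17.1% to 38.0%.

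Two-cell-like cells were taken as cells with at least 5 UMIs over 22 two-cell genes (the Zscan4, Tcstv and Usp17l families, Zfp352, Tmem92, Duxf3 and others), a list that holds no member. This gave 219 cells (0.947% of 23127) at time 1 and 103 (0.404% of 25522) at time 2. The class is a range and not a type, with 143 and 63 cells holding between 3 and 7 such UMIs. A separate cluster led by B020031M17Rik, with two-cell genes leading, held 59 and 29 cells.

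Dppa2 stood higher in two-cell-like cells than in the pool in both libraries. It was at 180 CPM (172 to 188) against 83.4 CPM early, a log2 ratio of 1.10, and at 277 CPM (265 to 290) against 96.6 CPM late, a log2 ratio of 1.51. In the two-cell-like cluster it was at 312 and 461 CPM, log2 ratios of 1.89 and 2.24. In the two-cell-like cells taken by UMIs Dppa2 was the 1 member of 4 past 2-fold higher, beside 5.08% of all genes at time 1 and 3.78% at time 2. Of single cells, 80 of 219 at time 1 and 58 of 103 at time 2 lay above the 90th percentile of pool cells.

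Dppa4, the partner of Dppa2, did not stand higher. It was at 102 CPM (96.2 to 109) in two-cell-like cells of time 1 and at 126 CPM (118 to 135) in those of time 2, log2 ratios of -0.27 and -0.28 against the pool, and 20 of 219 and 9 of 103 cells lay above the pool's 90th percentile, 9.13% and 8.74%. Two-cell-like cells of the pool clusters alone gave log2 ratios of -0.10 and -0.07. Of the neighbouring pair, Dppa2 was thus higher than in the pool in both libraries and Dppa4 was not.

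Dppa3 differed between the libraries. At time 1 it was at 627 CPM (612 to 642) in two-cell-like cells, a log2 ratio of 0.83 against the pool, and in the later library at 159 CPM (149 to 168), a log2 ratio of -0.27. In the two-cell-like cluster it was at 1042 CPM at time 1 (log2 ratio 1.56, past 2-fold, as were 8.31% of genes in the higher direction) and at 214 CPM at time 2 (0.16, where 5.94% of genes were past 2-fold higher). At time 1 this rested on a minority of cells with very high counts: the median two-cell-like cell was at 205 CPM, the 90th percentile at 1838 CPM and the highest cell at 6519 CPM, and 38 of 219 cells lay above the pool's 90th percentile of 803 CPM. At time 2, 5 of 103 lay above the pool's 90th percentile of that library, 526 CPM, with a highest cell at 3533 CPM.

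By the number of two-cell UMIs in a cell, Dppa3 of time 1 was at 200.2 CPM in 2559 cells with 1 to 4, below cells with none, and then at 372 CPM in 105 cells with 5 to 19, 691 CPM in 61 cells with 20 to 99 and 957 CPM in 53 cells with 100 or more, against 221 CPM in cells with none. At time 2 the classes from 5 UMIs on stood at 96.3, 137 and 286 CPM, against 161 CPM in cells with none and 132 CPM in cells with 1 to 4, and held 47, 31 and 25 cells. Dppa2 of time 2 went from 84.4 CPM in cells with none to 181, 284 and 432 CPM. At time 1 it went from 56.0 CPM to 145, 207 and 203 CPM, the last 2 within each other's counting interval. Dppa4 stayed between 84.3 and 141 CPM over all these classes and both libraries.

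**Figure D3:**
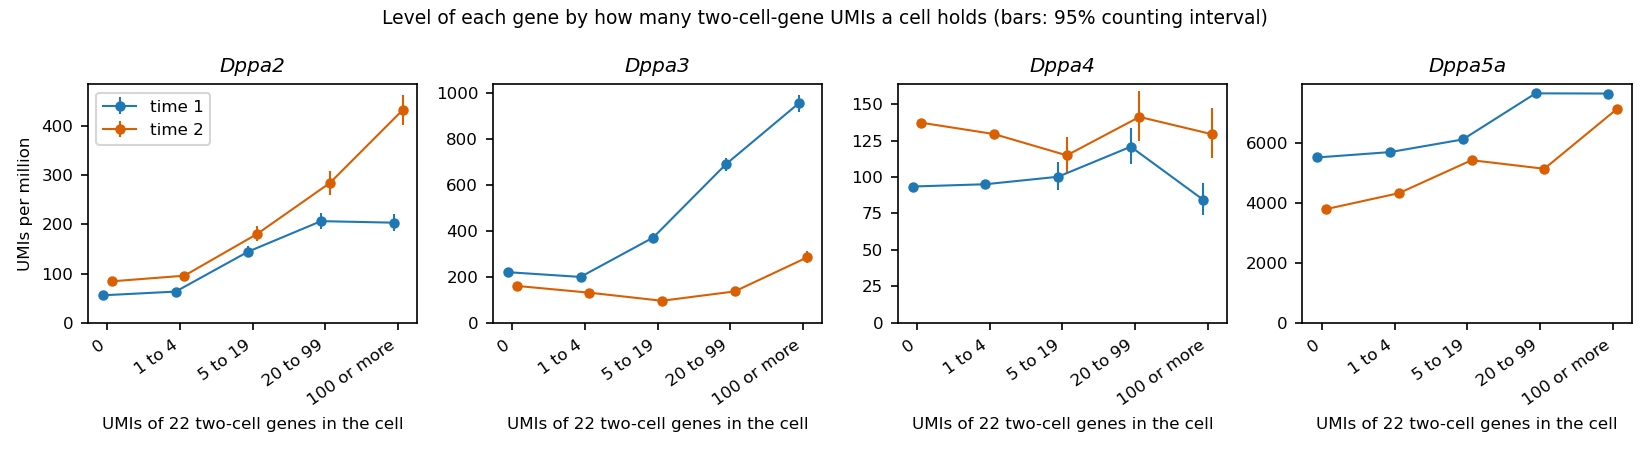
Level of each gene (y axis, CPM, with 95% counting intervals) in cells grouped by their UMIs of 22 two-cell genes (x axis), at time 1 and time 2; lines join groups of 1 library. Dppa2 is highest in the upper groups of both libraries, reaching 432 CPM at time 2, Dppa3 reaches 957 CPM at time 1 and 286 CPM at time 2, and Dppa4 shows no such order.

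Two-cell-like cells came from several clusters, which differed between the libraries. Ulk4-led cells were 28.8% of them at time 1 and 0.971% at time 2, and Tdh-led cells were 20.4% at time 2, so the class is not the same mixture at both times. The contrasts were repeated against the other cells of the same cluster where at least 20 were found. At time 1 the log2 ratio of Dppa2 was 0.96 in the Ulk4-led (63 cells), 1.19 in the Rhox9-led (22 cells) and 2.15 in the primed epiblast-like Fgf8-led cluster (21 cells). Dppa3 in the same cells gave 0.90, 1.35 and 3.34, Dppa4 0.14, -0.11 and 0.39, and Dppa5a -0.00, 0.39 and 0.85. At time 2 only the Tdh-led cluster had enough cells (21), with 1.22 for Dppa2, -0.02 for Dppa3, -0.20 for Dppa4 and 0.62 for Dppa5a. Fibroblast markers summed to 678 CPM over the 13 listed genes in the two-cell-like cells of time 1 and to 314 CPM in the pool; their part in these ratios was not tested. In the two-cell-like cluster of time 1, where the ratios were larger for Dppa2 and Dppa3, they summed to 247 CPM.

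Dppa5a against the pool gave log2 ratios of -0.27 at time 1 and 0.37 at time 2. The first of these depended on which cells were compared, since two-cell-like cells of the pool clusters alone gave 0.36 and 0.57.

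In primed epiblast-like cells all 4 members were lower than in the pool. In the primed epiblast-like cells, the Fgf8-led cluster with Fgf8, Fgf5 and Pou3f1 among its leading genes (5374 and 264 cells), Dppa3 was at 63.6 and 65.8 CPM, log2 ratios of -2.45 and -1.53 against the pool. Dppa5a was at 1916 and 1790 CPM (-2.15 and -1.32), Dppa2 at 26.0 and 42.1 CPM (-1.65 and -1.18), and Dppa4 at 54.8 and 88.6 CPM (-1.16 and -0.78). All 4 passed 2-fold lower at time 1, where 5.74% of genes did, and 3 of 4 at time 2, where 4.2% did. Between libraries the primed level of Dppa3 and Dppa5a differed by log2 ratios of 0.05 and -0.10, beside -0.88 and -0.92 in the pool. Primed levels of Dppa2 and Dppa4 were higher at time 2, each with a log2 ratio of 0.68, beside 0.21 and 0.31 in the pool. Of 7277 genes in the primed cells, 99.1% had lower ratios than each of these.

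Of the classes in the plot of levels, mesendoderm-like cells had the lowest levels (Lhx1-led, 214 and 385 cells, named at a finer clustering). There Dppa2 was at 4.49 and 6.73 CPM, Dppa3 at 14.2 and 8.99 CPM, Dppa4 at 10.6 and 16.4 CPM, and Dppa5a at 442 and 234 CPM. Shares of these cells with a Dppa2 UMI were 2.34% and 5.45%. This is below the fibroblast-like cells, the feeder class, at 18.0 and 38.0 CPM for Dppa2, 68.6 and 73.8 CPM for Dppa3, 31.8 and 66.5 CPM for Dppa4, and 1817 and 1962 CPM for Dppa5a. Background droplets, barcodes too small to be cells, held 4828 and 2083 CPM of Dppa5a, 177 and 89.6 CPM of Dppa3, 118 and 134 CPM of Dppa4, and 58.7 and 56.0 CPM of Dppa2.

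Dppa5a was skewed over fibroblast-like cells. The median fibroblast-like cell held 667 CPM of Dppa5a at time 1 and 350 CPM at time 2, well under the summed levels, and 8 and 4 thinned UMIs, while the highest cells held 124 and 130. Pluripotency markers summed to 1052 and 1610 CPM in this class, beside 13681 and 10069 CPM of fibroblast markers. Their part in the members' levels was not tested. The log2 ratios of time 2 over time 1 there were 1.04 for Dppa2, 1.04 for Dppa4, 0.10 for Dppa3 and 0.11 for Dppa5a, so that 2 of 4 members were past 2-fold higher, beside 1.36% of all genes.

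Among the clusters given no cell type name, the Ulk4-led one (4904 and 89 cells) held Dppa2 at 64.0 and 78.0 CPM, Dppa3 at 218 and 199.9 CPM, Dppa4 at 104 and 129.7 CPM, and Dppa5a at 5865 and 4935 CPM. At time 1 all 4 members were below the pool there, with log2 ratios to the pool of -0.69 for Dppa3 and -0.53 for Dppa5a. At time 2 its Dppa5a was above the pool, while the interval of its Dppa3 (187 to 214) included the level of the pool. The Rpgrip1-led cluster had 2388 cells at time 1 and 2 at time 2. At time 1 it held Dppa2 at 55.6 CPM, Dppa3 at 224 CPM, Dppa4 at 100 CPM and Dppa5a at 6042 CPM, all below the pool. The Id1-led cluster (86 and 4147 cells) held Dppa2 at 37.2 and 52.8 CPM, Dppa3 at 72.0 and 49.9 CPM, Dppa4 at 65.2 and 92.4 CPM, and Dppa5a at 2089 and 1681 CPM. The Krt8-led cluster (1424 and 556 cells) went from 17.9 to 12.7 CPM for Dppa2, 50.7 to 22.8 CPM for Dppa3, 49.3 to 32.7 CPM for Dppa4 and 1547 to 421 CPM for Dppa5a, a log2 ratio of -1.87 for the last. Its make-up differed between the libraries, since mesendoderm-like cells were 14.6% of it at time 1 and 61.0% at time 2. In its other cells (1216 and 217) Dppa2 was at 19.4 and 22.4 CPM and Dppa4 at 53.5 and 57.4 CPM, so neither was lower at time 2, while Dppa3 was at 54.7 and 44.7 CPM and Dppa5a at 1668 and 733 CPM. In its mesendoderm-like cells (208 and 339) the log2 ratios of Dppa2, Dppa3, Dppa4 and Dppa5a were 0.12, -1.19, 0.35 and -1.31. Over the clusters with at least 50 cells in a library the counting intervals of neighbours in the order overlapped in 3 of 11 pairs for Dppa2 at time 1, and in 2, 2 and 0 of 11 for Dppa3, Dppa4 and Dppa5a. At time 2 they overlapped in 4, 2, 4 and 1 of 9 pairs for Dppa2, Dppa3, Dppa4 and Dppa5a.

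**Figure D4:**
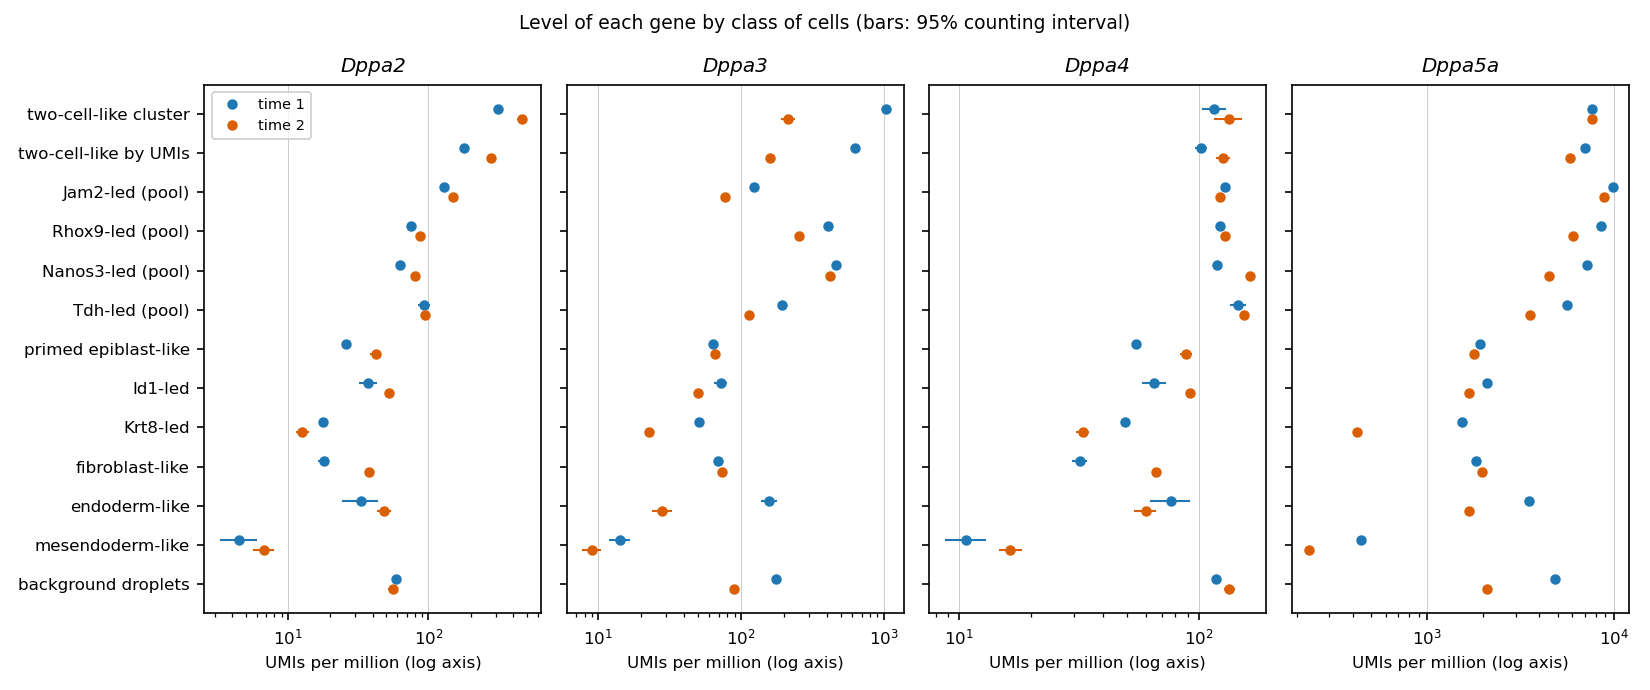
Level of each gene (x axis, CPM, log axis, with 95% counting intervals) in classes of cells, the 4 clusters of the pluripotent pool and background droplets (y axis), at time 1 and time 2. Mesendoderm-like cells lie lowest for all 4 genes in both libraries, Dppa2 is highest in the two-cell-like cluster (312 and 461 CPM), and Dppa3 of the two-cell-like cluster separates the libraries, at 1042 and 214 CPM.

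Lines from XX, XO and XY embryos were mixed in each library, so the pool was also split by each cell's X-linked UMIs relative to its autosomal ones, set to 1 in Y-positive cells. Cells of the pool without a Y UMI and with a ratio of at least 1.2 (X-high, medians 1.79 and 1.87) numbered 5097 and 2890, and those below (X-low, medians 0.98 and 0.97) 2166 and 14187. Near the limit, between 1.1 and 1.3, lay 5.74% and 10.0% of pool cells. Dppa5a was at 9169 and 8114 CPM in X-high cells and at 6930 and 3752 CPM in X-low cells, log2 ratios of 0.40 and 1.11. Dppa2 was at 93.1 and 134 CPM against 62.1 and 89.0 CPM, 0.58 in both libraries. Dppa3 had the opposite sign, at 305 and 135 CPM against 452 and 204 CPM, -0.57 and -0.58. Past 2-fold higher in X-high cells were 1.59% of genes at time 1 and 3.01% at time 2, which included Dppa5a at time 2.

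Much of this split went with the clusters. X-high cells were 70.3% Rhox9-led and 27.6% Jam2-led at time 1 and 69.7% Jam2-led at time 2, whereas X-low cells were 73.2% Nanos3-led at time 1 and 66.2% Tdh-led at time 2. Inside clusters Dppa2 kept a positive X-high over X-low ratio in 7 of 7 contrasts with at least 50 cells on both sides, from 0.03 to 0.48, but in 3 of the 7 (both Nanos3-led contrasts and Jam2-led cells of time 2) the counting intervals of the 2 sides overlapped. Dppa5a was positive in 6 of 7, with -0.00 in Jam2-led cells of time 1 and up to 1.2 in Rhox9-led cells of time 2, which had 74 X-low cells. Dppa3 was negative in 5 of 7, with overlapping intervals in 3 of these 5, and positive in Rhox9-led (0.16) and Tdh-led (0.43) cells of time 2. Dppa4 was between -0.27 and 0.10. At time 2 the X-high cells of the Nanos3-led and Tdh-led clusters had a median ratio of 1.27 and 1.37, close to the limit of 1.2.

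Within each class of X dosage the later library again held less Dppa3, with log2 ratios of -1.17 in X-high, -1.15 in X-low and -1.19 in Y-positive cells. All of these were past 2-fold, and the share of all genes past 2-fold in these classes was not computed. These classes lay in different clusters at the 2 times. Inside clusters Dppa3 of X-high cells went from 390 to 261 CPM (Rhox9-led) and from 121 to 75.1 CPM (Jam2-led), whereas in X-high Nanos3-led cells it was at 439 and 422 CPM. Dppa3 of X-low cells went from 503 to 233 CPM (Rhox9-led, 481 and 74 cells) and from 460 to 428 CPM (Nanos3-led), and that of Y-positive Nanos3-led cells from 480 to 395 CPM. Dppa5a differed by -0.18 in X-high cells, and by -0.89 and -0.86 in X-low and Y-positive cells. Inside clusters the Dppa5a of X-high cells went from 8816 to 6874 CPM (Rhox9-led), 10012 to 8912 CPM (Jam2-led) and 7356 to 5468 CPM (Nanos3-led). Dppa2 was higher at time 2 in all 3 classes (0.52, 0.51 and 0.47), and Dppa4 in X-low (0.40) and Y-positive cells (0.35), with 0.03 in X-high cells. Inside clusters the Dppa2 of X-high cells differed by less than over the class, at 77.3 and 93.2 CPM (Rhox9-led), 127 and 149 CPM (Jam2-led) and 65.4 and 81.7 CPM (Nanos3-led). The difference between X-high and X-low cells in these ratios was not tested.

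Values of r between members from cell to cell were small. Pearson's r across pool cells (thinned counts, log2 plus 1, a description with no test since cells share their library) lay between -0.13 and 0.14 for all 6 pairs in both libraries. Dppa2 and Dppa4 gave 0.10 over 8338 cells at time 1 and 0.02 over 19571 cells at time 2. Their means were only 0.81 and 1.25 thinned UMIs per cell at time 1, and 0.95 and 1.55 at time 2. Counting error lowers r in counts this sparse, so these values do not show how closely the 2 genes are related. The pair Dppa3 and Dppa5a stood higher inside some clusters, at 0.32 and 0.36 in the Rhox9-led and 0.19 and 0.22 in the Tdh-led cluster, and near 0 in the Jam2-led cluster (0.01 and 0.05).

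By likeness across pool cells (8301 genes, ranked by the smaller r of the 2 libraries), Ifitm1, an interferon-inducible transmembrane gene also used as a germ cell marker, came first for Dppa3 (r of 0.37 and 0.47), followed by Cox4i1, H2afy, Rhox9 and Rhox6. The most opposite was Stmn2, a microtubule regulator (-0.40 and -0.39), then Upp1, Tdgf1 and Tbx3. Ooep, an oocyte KH-domain gene 7932 bases from Dppa5a on the same strand, came first for Dppa5a (0.50 and 0.37). Next were the X-linked Slc25a5 (0.36 and 0.33) and Pigp (0.32 and 0.45), which shares sequence with Dppa5a, and then the X-linked ribosomal protein genes Rps4x and Rpl39. The gene ranked first was Tmsb4x for Dppa2 (0.15 and 0.14) and Utf1 for Dppa4 (0.07 and 0.05), values that are no finding in counts this sparse.

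Over 22 sums of clusters with at least 50 cells in a library (10060 genes, the Krt18-led cluster of time 1 included), Dppa2 was most like Fbxo15 (r = 0.95), which was itself at 1095 and 873 CPM in the two-cell-like cluster against 173 and 195 CPM in the pool. Dppa5a was most like 2410141K09Rik (0.97) and Ooep (0.95), Dppa4 most like Fam178b (0.96) and Dppa3 most like Calml4 (0.93). The members among themselves gave 0.84 for Dppa2 with Dppa4, 0.80 for Dppa5a with each of these and with Dppa3, 0.70 for Dppa3 with Dppa4 and 0.68 for Dppa3 with Dppa2. These sums share libraries and 1 contrast of pluripotent with other cells.

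Genes next to the members on the chromosome did not all move with them. Ooep, next to Dppa5a, was at 490 and 266 CPM in the pool, a log2 ratio of -0.88 beside -0.92 for Dppa5a, and Gsta4 on the other side gave 0.22. Around Dppa3, Gdf3 gave 0.50, Nanog -0.32 and Slc2a3, a glucose transporter gene, -1.08. Morc1, the next expressed gene after Dppa2, gave 0.44 and Nectin3, before Dppa4, gave -0.61.

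Lists of genes tied to the members by function gave the following in the pool, with 2-fold as the limit, -0.03 as the median of all genes, and 1.08% of genes past the limit higher and 3.18% lower at time 2. Of 13 repressors of the two-cell-like state, all passed 10 CPM and 1 was past 2-fold, Ncl, a nucleolar protein, higher at time 2 (1942 and 4670 CPM, log2 1.27); the list's median was 0.14, with 7 above and 6 below 0. None of the 22 two-cell genes passed 10 CPM in the pool, which follows from how the pool was chosen, without cells holding 5 or more of their UMIs. Of the 8 measured genes for DNA methylation and Uhrf1, none was past 2-fold and the median was 0.04. Uhrf1, the target of Dppa3, was at 125 and 126 CPM and Dnmt1, the maintenance methyltransferase, at 105 and 108 CPM, while Dnmt3l stood at 201 and 129 CPM (-0.64) and Tet2 at 19.2 and 33.3 CPM (0.76).

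Among germline genes known to be silenced by DNA methylation, 5 of 12 passed 10 CPM in the pool. Hormad1 was at 47.8 and 22.6 CPM, Sycp3 at 21.8 and 11.4 CPM, and Stk31 at 16.6 and 11.2 CPM. Sohlh2, at 12.1 and 4.48 CPM, passed the minimum through time 1 alone, and Ddx4, at 8.84 and 10.8 CPM, through time 2 alone. Of the KH-domain relatives of Dppa5a, Ooep and Khdc3 passed, at log2 ratios of -0.88 and 0.59 between libraries.

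Of 13 measured pluripotency markers, none was past 2-fold between the libraries of the pool, 9 were above 0 and the median was 0.18. Pou5f1 was at 707 and 787 CPM, Sox2 at 324 and 306 CPM, Nanog at 154 and 123 CPM, Klf4 at 75.8 and 127 CPM and Tfcp2l1 at 39.8 and 73.2 CPM. Clusters entered the pool through a high sum of these markers, so the marker levels there are partly set by that choice. In the two-cell-like cluster most of these markers were below the pool, 11 of 13 at time 1 (median log2 -0.69) and 10 of 13 at time 2 (median -0.36). The median of all genes in the same comparison was also below 0, at -0.17 and -0.13. Fbxo15 was past 2-fold higher in both libraries, with log2 ratios of 2.65 and 2.15, and Sox2 gave -1.29 and -0.65. Of 8 other measured genes named for stem cell expression, 1 was past 2-fold higher at time 2 in the pool, Tdh (194 and 470 CPM), which leads the cluster that made up most of that pool.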

How the data were processed

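Per the labels, capture used version 3.1 chemistry of the 10x platform. For each time point there is 1 matrix of raw UMI counts that the authors deposited, with no normalisation; the submitters' processing notes name bcl2fastq 2.20.0.422, Cell Ranger 6.1.2 and the builds mm10 and GRCm38. Of 32285 genes, 32158 matched GENCODE M21 by identifier.

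A barcode was kept as a cell above a UMI threshold of 18315 and 18646, which is 0.1 of the 99th percentile in the 20000 deepest barcodes, if it had 1000 genes or more and no more than 10% of its UMIs from mitochondrial genes. Scrublet's automatic threshold marked 0 and 2287 cells, so the 10% with the highest doublet scores per library were removed instead, a choice made after seeing this. Cells of both libraries were clustered in scanpy 1.11.5 (2000 variable autosomal genes without the members, 30 components, 15 neighbours, Leiden resolution 0.5), giving 14 clusters. Clusters were named from at least 3 list markers among their 10 leading genes. The pool took clusters with at least 2500 CPM of pluripotency markers, under 100 CPM of primed and under 1000 CPM of two-cell markers, without cells holding 5 or more two-cell UMIs; these limits were set after the clusters were seen.

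Levels are summed UMIs of a gene per 1e6 UMIs (CPM) with exact Poisson 95% intervals, shares have exact Clopper-Pearson intervals, and ratios are log2 of CPM plus 1; UMI intervals cover counting error only. With 1 library per time point no test was run. Cells were not assigned to lines: the LMO tag libraries that the labels mention were not used here, and the labels state low tagging efficiency. Comparisons across all genes used genes with at least 10 CPM on either side and a limit of 2-fold. On simulated whole-library sums with counting error only, log2 ratios of 200 of 200 changed genes came within 0.05 of expected values. The simulation did not use the 2-fold limit, small classes of cells, or spread between cells or libraries. TMM factors came from edgeR 4.0.16, copies from BLAST 2.17.0. The members, marker lists and gene lists were chosen with earlier results of these data known. Named genes were the members, their lists, the 5 most alike by r across cells and across clusters, with the most opposite ones added after seeing the data, and the nearest expressed genes.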

Additional observations from a re-analysis of the deposited data

Results flagged for a closer look

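Some contrasts had opposite signs in different classes of cells, each past its counting error, and none of these differences was tested. The log2 ratio of time 2 over time 1 for Dppa2 was 1.04 in fibroblast-like cells and -0.47 in the Krt8-led cluster. For Dppa4 it was 1.04 and -0.58, and for Dppa5a 0.11 and -1.87, in the same pair of classes. The Krt8-led cluster was 14.6% mesendoderm-like at time 1 and 61.0% at time 2, and inside its mesendoderm-like and its other cells the ratio was 0.12 and 0.20 for Dppa2 and 0.35 and 0.10 for Dppa4, so the negative sign of these 2 genes was not found within either part. For Dppa5a it was -1.31 and -1.18 there. For Dppa3 it was 0.10 in fibroblast-like cells and -1.98 in two-cell-like cells, which lay in different clusters at the 2 times (28.8% and 0.971% Ulk4-led). Inside the two-cell-like cluster it was -2.28, and in two-cell-like cells of the pool clusters -2.08.

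Against the pool, two-cell-like cells gave 0.83 for Dppa3 in the early library and -0.27 in the later one, as log2 ratios. The later value was 0.12 in cells with at least 20 two-cell UMIs and 0.16 in the two-cell-like cluster, so the opposite sign was not kept. For Dppa5a the ratios of the early and later library were -0.27 and 0.37, and the first was 0.36 over two-cell-like cells of the pool clusters alone. Dppa4 in X-high over X-low cells of the pool was 0.062 at time 1 and -0.31 at time 2. The differences between the libraries were not tested.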

How the results depend on the processing

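No paired analysis was possible because each time point had 1 library and cells were not assigned to lines here. Of 103 alternatives, 28 moved a value by less than its counting error (a count of genes by less than 1.5 times), 69 by more with the direction kept, and 6 reversed it. In the order Dppa2, Dppa3, Dppa4, Dppa5a, the log2 ratio of time 2 over time 1 in the pool became 0.36, -0.72, 0.46 and -0.77 with TMM scaling, 0.61, -0.37, 0.62 and -0.45 with primed epiblast-like cells included, and 0.56, -0.47, 0.54 and -0.54 over all cells. With a pseudocount of 10 CPM the first 3 genes gave 0.19, -0.85 and 0.29, and the mean of per-cell CPM gave 0.25 for Dppa2, 0.33 for Dppa4 and -0.92 for Dppa5a. Dppa5a gave -0.91 with doublets kept and -0.92 with a 5% mitochondrial limit, and finer clustering gave -0.91 for Dppa3 and -0.94 for Dppa5a. The following 3 settings were chosen after seeing the data. Using only pool clusters with a pluripotency marker among their leading genes gave -0.29 (reversed), -0.20, 0.20 and -1.13 (past 2-fold). In that setting Tdh-led cells went from 72 to 11097 beside 1580 and 2171 Jam2-led cells. Dppa2 was not lower inside either cluster, and Dppa5a was not past 2-fold inside either. Equal weight to 3 clusters gave 0.26, -0.48, 0.15 and -0.44. Subtracting the fibroblast-like level gave -0.16 (reversed), -1.26 (past 2-fold), -0.083 (reversed) and -1.40 (past 2-fold). The subtracted level was above that of mesendoderm-like cells for each gene in both libraries. The cause of these reversals was not tested.

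For two-cell-like cells against the pool, a limit of 20 two-cell UMIs gave 1.29 and 1.87 (times 1 and 2) for Dppa2, 1.21 and 0.12 (reversed) for Dppa3, -0.17 at time 2 for Dppa4, and -0.15 and 0.45 for Dppa5a. Doublets kept gave 1.01 and 1.37 for Dppa2, 0.73 at time 1 for Dppa3 and 0.27 at time 2 for Dppa5a, and a pseudocount of 10 CPM gave 1.02 and 1.43 for Dppa2. The cluster and the cells of pool clusters were added after seeing the data. The two-cell-like cluster gave 1.89 and 2.24 for Dppa2, 1.56 and 0.16 (reversed) for Dppa3, -0.095 at time 1 for Dppa4, and -0.15 and 0.77 for Dppa5a. Two-cell-like cells of pool clusters alone gave 1.29 for Dppa2 and 1.01 for Dppa3 at time 1, -0.098 and -0.074 for Dppa4, and 0.36 (reversed) and 0.57 for Dppa5a. The cause was not tested.

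The difference in the share of pool cells with a UMI (7.14, -20.97, 8.01 and -0.45 percentage points) became 5.30, -9.99, 1.57 and -0.0051 with all UMIs, 19.8, -0.94, 20.2 and -0.27 with primed cells included, and 4.56, -23.7, 10.5 and -1.33 for cells with at least 2 UMIs. Finer clustering gave -22.1 for Dppa3. The 315 genes past 2-fold, of 7395 compared, became 558 of 26925 with no minimum level and 99 of 2839 with a minimum of 50 CPM. Few cells were available in the two-cell-like class, with 219 and 103 cells, and in the Tdh-led cluster of time 1, with 72.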
